A study of Homo sapiens with 6 samples.

Results

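The BCL2 family is described here by 10 named members: the pro-survival genes BCL2, BCL2L1 and MCL1, the effector genes BAX and BAK1, and the BH3-only genes BID, BCL2L11, BAD, PMAIP1 and BBC3. Members were taken by gene symbol, and 8 of the 10 were among the 16792 genes measured. BCL2 and BBC3 were not analysed here. The cells were EndoC-βH1 (written EndoCBH1 by the submitters), a line of human beta cells made from fetal pancreas. Non-targeting siRNA was given in 3 libraries (siNT, genotype labelled WT) and siRNA against the homeobox gene MNX1 in 3 (siMNX1, genotype labelled MNX1 knock down). The study asked whether MNX1 keeps somatostatin silent in beta cells by repressing PERCC1. No label gives the siRNA sequences, the time after transfection or whether replicates are separate cultures. P-values therefore cover only the spread among these 6 libraries, and that spread may be technical.

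Proteins of this family decide whether the outer mitochondrial membrane is opened. Pro-survival members hold the effectors BAX and BAK1 in check, BH3-only members are induced or modified by stress and bind the pro-survival members or the effectors, and opened mitochondria release cytochrome c, which leads to caspase activation. In beta cells the balance has been studied mainly for death caused by cytokines, endoplasmic reticulum stress and excess nutrients. EndoC-βH1 cells were immortalised with simian virus large T antigen.

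Values are the authors' normalized counts, listed for replicates 1, 2 and 3 in that order. The library sums, 18406479 to 18704645, were set by the normalization, so sequencing depth is unknown and counting intervals were not computed. MNX1 itself averaged 2020 ± 28.1 in siNT and 1781 ± 92.4 in siMNX1 libraries (SD, n = 3), a difference of 11.8% that missed the threshold (limma, adjusted p = 0.116). PERCC1 (log2 fold change 4.24, limma, adjusted p = 2.47e-06) and SST, which encodes somatostatin (1.96, limma, adjusted p = 3.97e-06), rose. All 12 beta cell markers looked for were measured, with a summed level of 291683 to 302950 in siNT and 362403 to 376986 in siMNX1 libraries. CHGA and INS made up most of that sum. Of the 12 markers, 6 had a log2 fold change above 0 and 6 below, with 4 higher and 1 lower (G6PC2) by limma. Of 13 markers of other islet and pancreas cells 4 were measured, summing to 2671 to 3006 in siNT and 3425 to 3511 in siMNX1, of which SST was the 1 that passed the threshold. Of 12 stromal, endothelial and immune markers 3 were measured, summing to 1372 to 1603 and 1167 to 1417. CD68 made up most of this sum, at 1352 to 1546 in siNT and 1120 to 1377 in siMNX1. No measured marker was at 0 in any library, and the part of these shifts in the results below was not tested. On the second principal component (20.1% of the variance) siMNX1 replicate 1 was placed at -29.4 and siMNX1 replicate 2 at 31.7, with the remaining 4 from -2.40 to 2.66. In bulk RNA, fewer cells of a type and less RNA per cell cannot be told apart.

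With MNX1 siRNA the family showed small differences, none past the threshold. BID, BCL2L11, BAD and BAK1 were lower in every siMNX1 library than in any siNT library, by 12.3% to 20.2% of the mean. BCL2L1 and PMAIP1 were higher in every siMNX1 library, by 7.83% and 14.0%. MCL1 and BAX differed by 0.432% and 1.31%, with overlapping groups. Limma called 0 of the 8 measured members at an adjusted p of 0.05, where 3.32% of all genes were called (1.99% higher and 1.33% lower). An unadjusted p under 0.05 was found for 6 of 8 members, 2 higher and 4 lower, beside 18.4% of all genes (9.81% higher and 8.56% lower). Groups did not overlap for 6 of 8 members, again 2 higher and 4 lower, beside 24.0% of all genes (12.0% and 12.1%). The median size of the log2 fold change, regardless of sign, was 0.19 over the members and 0.13 over all genes. With siNT replicate 1 left out, 0 of 8 members had an unadjusted p under 0.05, and with any other single library left out 3 or 4 did. It was 3 without siMNX1 replicate 1 and 4 without siMNX1 replicate 2, the libraries at the ends of the second component. Over all genes, 2683 had an unadjusted p under 0.05 by limma without siNT replicate 1. Without each other single library 2464 to 2995 genes did, beside 3084 with all 6.

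**Figure D1:**
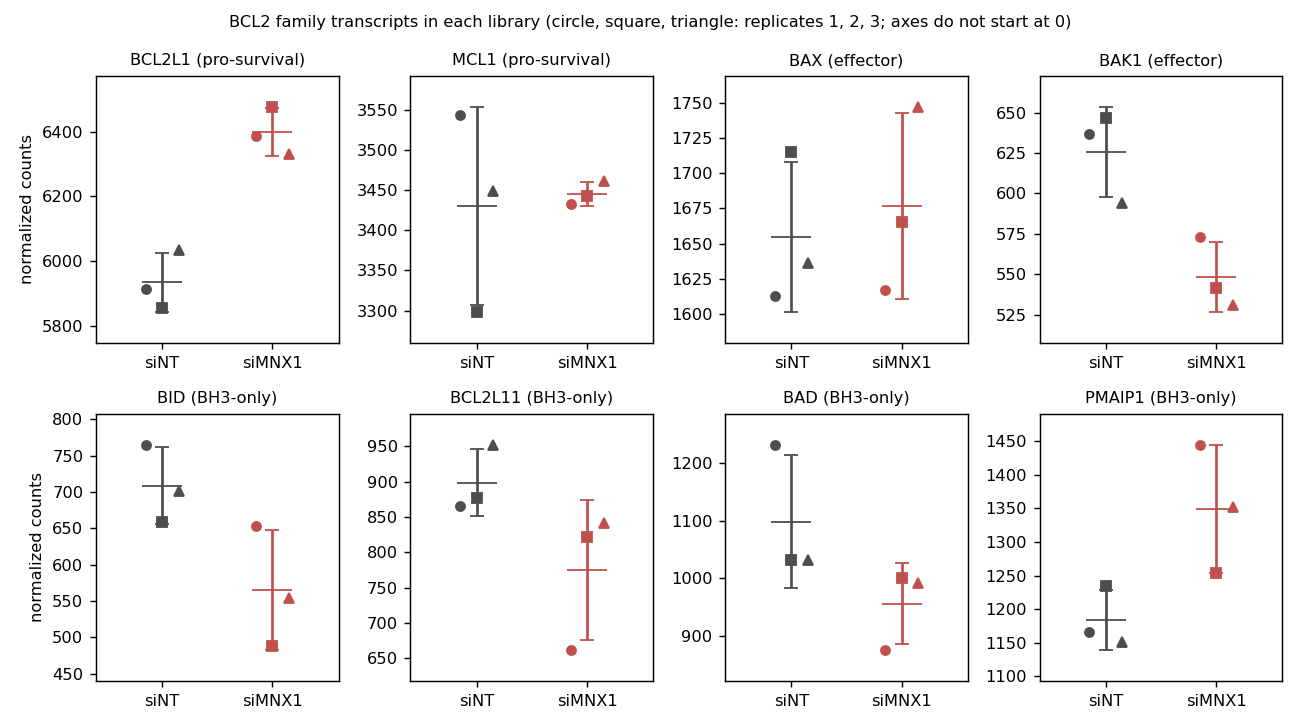
Normalized counts of the 8 measured BCL2 family genes in each library (vertical axes, not starting at 0) by group, with replicates 1, 2 and 3 as circle, square and triangle and the mean and SD as bars (n = 3). The groups are apart for BCL2L1, BAK1, BID, BCL2L11, BAD and PMAIP1 and mixed for MCL1 and BAX.

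The stretches before the members' start sites were searched for motifs of factors that bear on this comparison, on both strands of the 250 bases before each start listed by RefSeq (GRCh38.p14). A match is a description of letters, not of binding. The motifs were TAATTA, the core bound by many homeodomains, GTAAACA, a core of FOXO factors, and TGACGT, a core of ATF and CREB sites. None of them contains another. Windows were found for 9 of 10 members, 15 windows in all. TAATTA was in 1 of 5 BID windows, 226 bases before that window's start site, and in 4.35% of all 35116 windows. GTAAACA was in the BCL2L11 window at 223 bases, and in 2.98% of all windows. TGACGT was in the BAD windows (the same site, at 54 and 93 bases) and the PMAIP1 window, and in 7.10% of all windows. The first 2 are printed because they lie in members that were lower in every siMNX1 library and outside annotated exons, with the motif in capitals and each read 5′ to 3′ on its gene's strand. The BID stretch is chr22:17774856-17774915 (minus strand), upstream of the annotated gene span. The BCL2L11 stretch is chr2:111120664-111120723 (plus strand), inside the annotated gene span and between exons.
BID: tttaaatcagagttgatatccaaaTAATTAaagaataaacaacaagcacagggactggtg
BCL2L11: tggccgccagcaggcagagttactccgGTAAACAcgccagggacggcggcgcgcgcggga

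BCL2L1 encodes BCL-XL and, by alternative splicing, a short form with the opposite action, and the table gives 1 value for both. It lies on chromosome 20 (31664452 to 31723989, minus strand, GRCh38). Its normalized counts were 5912, 5854 and 6034 in siNT and 6386, 6477 and 6331 in siMNX1. All siMNX1 libraries lay above all siNT libraries, and this was the tightest member, with a coefficient of variation of 1.54% in siNT and 1.16% in siMNX1 among genes whose groups were apart. The log2 fold change was 0.11 (SE 0.0405, 95% interval 0.018 to 0.20) and did not pass (limma, adjusted p = 0.188). Its gene span overlaps ABALON on the opposite strand, which had 273 ± 19.7 and 288 ± 1.28. Whether reads of the 2 genes were told apart where they overlap is unknown, since no source says how strand was handled.

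MCL1 encodes a short-lived pro-survival protein and lies on chromosome 1 (150574551 to 150579738, minus strand), where its span overlaps ADAMTSL4-AS1. Its normalized counts were 3543, 3298 and 3449 in siNT and 3432, 3442 and 3461 in siMNX1. The siMNX1 libraries lay inside the range of the siNT libraries. The log2 fold change was 0.0068 with a 95% interval of -0.098 to 0.11, so a difference in the mean of more than 8.07% upward or 6.59% downward lies outside this interval (limma, adjusted p = 0.959).

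The effectors BAX and BAK1 form the pores in the mitochondrial membrane and can replace each other in many cells. BAX (chromosome 19, 48954815 to 48961798, plus strand) had 1613, 1715 and 1636 normalized counts in siNT and 1617, 1666 and 1747 in siMNX1. The groups overlapped, and the log2 fold change was 0.019 (95% interval -0.11 to 0.14, limma, adjusted p = 0.898). BAK1 (chromosome 6, 33572547 to 33580293, minus strand) had 637, 646 and 594 in siNT and 573, 541 and 531 in siMNX1. Its siMNX1 libraries all lay below its siNT libraries, with a log2 fold change of -0.19 (SE 0.0732, 95% interval -0.35 to -0.025) that did not pass (limma, adjusted p = 0.203). Reads of BAK1 could also be shared with its processed pseudogenes BAK1P1 and BAK1P2, neither of which was measured, and its span overlaps GGNBP1 on the opposite strand. Whether BAX and BAK1 differed from each other in their response was not tested.

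Among the BH3-only genes, BID had the smallest adjusted p of all members. BID is cut by caspase-8 and links death receptors to mitochondria. It lies on chromosome 22 (17734138 to 17774770, minus strand), and is the member whose printed stretch holds TAATTA. Its normalized counts were 765, 659 and 702 in siNT and 653, 489 and 554 in siMNX1. The groups were apart by a narrow gap, between 653 in siMNX1 replicate 1 and 659 in siNT replicate 2. The log2 fold change was -0.33 (SE 0.109, 95% interval -0.58 to -0.089) and did not pass (limma, adjusted p = 0.142). Its lowest adjusted p over the alternatives, 0.0731 without siMNX1 replicate 1, did not pass either. Without siMNX1 replicate 2 the log2 fold change was -0.23. The 3 genes whose log2 profiles over the 6 libraries, each centred on its mean, were nearest to that of BID were TIMM50, TNNT3 and CRYL1, with root mean square differences of 0.0429, 0.0487 and 0.0522 on the log2 scale. These 3 shared with BID the highest value, in siNT replicate 1, and the lowest, in siMNX1 replicate 2. That likeness comes from the way they were picked, over the same 6 libraries. CRYL1 had low values, from 13.7 to 23.8 normalized counts.

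BCL2L11 encodes BIM, which binds all pro-survival members and can activate BAX and BAK1 directly. It lies on chromosome 2 (111119378 to 111168447, plus strand). Its normalized counts were 865, 877 and 952 in siNT and 661, 821 and 841 in siMNX1. All siMNX1 libraries were lower, replicate 1 by far the most. The log2 fold change was -0.22 (SE 0.0965, 95% interval -0.44 to -0.0038) and did not pass (limma, adjusted p = 0.263). Without siMNX1 replicate 1 it was -0.11. The gene span overlaps that of MIR4435-2HG on the opposite strand in the annotation used.

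BAD, which growth factor signalling keeps inactive by phosphorylation, lies on chromosome 11 (64269830 to 64284704, minus strand). It had 1232, 1032 and 1031 normalized counts in siNT and 875, 1001 and 992 in siMNX1. The groups were apart, with siNT replicate 1 well above the rest. The log2 fold change was -0.20 (SE 0.088, 95% interval -0.40 to -0.00086, limma, adjusted p = 0.269), and without siNT replicate 1 it was -0.11. BAD overlaps GPR137 on the opposite strand, which had 1035 ± 99.7 in siNT and 937 ± 42.3 in siMNX1 with overlapping groups. Whether reads in the shared stretch were assigned to the right gene is unknown, since no strand setting is given.

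PMAIP1 encodes NOXA, which binds mainly MCL1 and promotes its breakdown. It lies on chromosome 18 (59899948 to 59904306, plus strand) and was the BH3-only member that was higher. Its normalized counts were 1166, 1234 and 1150.5 in siNT and 1444, 1253 and 1352 in siMNX1. The groups were apart, with siMNX1 replicate 2 close to the highest siNT library. The log2 fold change was 0.19 (SE 0.0679, 95% interval 0.035 to 0.34) and did not pass (limma, adjusted p = 0.177). Without siMNX1 replicate 1 it was 0.14, and without siMNX1 replicate 2 it was 0.24.

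**Figure D2:**
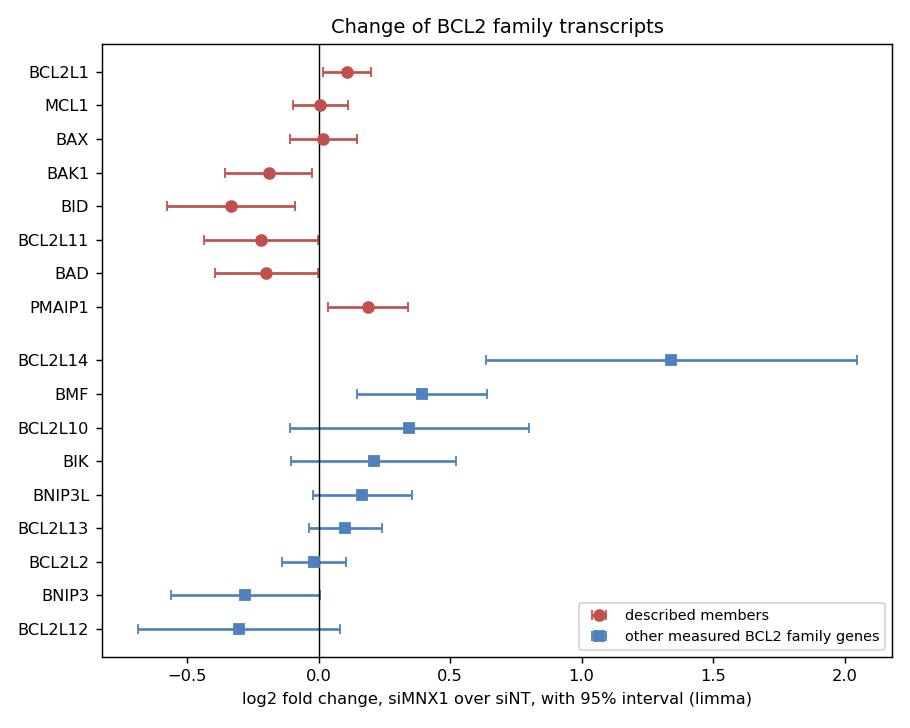
Log2 fold change of siMNX1 over siNT (horizontal axis) with its 95% interval from limma for the 8 measured members (circles) and 9 other BCL2 family genes (squares). The members lie between -0.33 and 0.19, and BCL2L14 stands farthest from 0 at 1.34.

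Ratios between members, which do not depend on how a library was scaled, are given as a description with no test. The log2 ratio of BAX to BCL2L1 was -1.87, -1.77 and -1.88 in siNT and -1.98, -1.96 and -1.86 in siMNX1, with overlapping groups and a mean difference of -0.090, or -0.055 without siNT replicate 2. The log2 ratio of BAK1 to MCL1 was -2.48, -2.35 and -2.54 in siNT and -2.58, -2.67 and -2.70 in siMNX1. All siMNX1 libraries were lower, with a mean difference of -0.20. The log2 ratio of BCL2L11 to MCL1 was -2.03, -1.91 and -1.86 in siNT and -2.38, -2.07 and -2.04 in siMNX1. Here too all siMNX1 libraries were lower, by a mean of -0.23, or by -0.12 without siMNX1 replicate 1.

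Levels of different genes were compared per kb of the longest coding transcript. In siNT libraries BCL2L1 was the highest, at 2273 ± 35.1 normalized counts per kb (SD, n = 3). BAX followed at 1219 ± 39.4, then BAD at 949.6 ± 99.98, MCL1 at 872 ± 31.5 and PMAIP1 at 608 ± 22.9. BID at 284 ± 21.4 and BAK1 at 283 ± 12.6 were next, and BCL2L11 was the lowest at 172 ± 9.04. Within this order BAD and MCL1 did not differ beyond their spread, nor did BID and BAK1. In siMNX1 libraries these 2 pairs stood in the other order, with MCL1 at 876 ± 3.70 and BAD at 826 ± 60.6, and BAK1 at 248 ± 9.82 and BID at 227 ± 33.3. There the values of MCL1 and BAD no longer overlapped, and those of BAK1 and BID did. The order depends on the length used: per kb of all annotated exons MCL1 was the second in siNT, at 785 ± 28.3, and BAX the fourth, at 639.7 ± 20.7. With that length neither pair changed its order between groups. MCL1 stood above BAD, at 785 and 643 in siNT and 788 and 560 in siMNX1. BAK1 stood above BID, at 283 and 159 in siNT and 248 and 127 in siMNX1. BCL2L1 was the highest and BCL2L11 the lowest with either length.

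**Figure D3:**
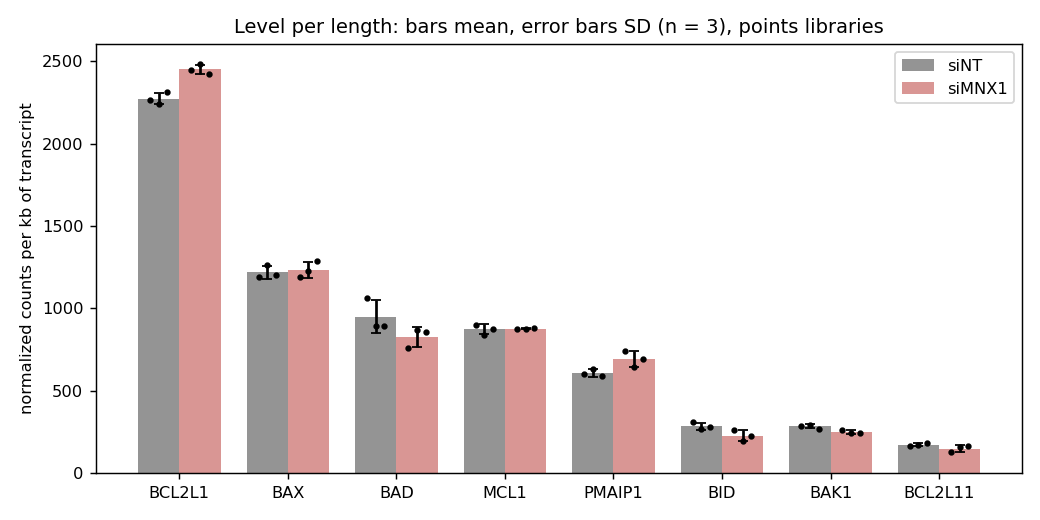
Mean normalized counts per kb of the longest coding transcript (vertical axis, from 0) for the 8 members in siNT (grey) and siMNX1 (red) libraries, with SD bars (n = 3) and a point per library. BCL2L1 stands at 2273 in siNT and BCL2L11 at 172.

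Other genes of the family were also measured, 9 of 13 looked for. Limma called 0 of these 9, where 3.32% of all genes were called. At an unadjusted p under 0.05, 2 were higher and 0 lower, or 2 of 9 beside 18.4% of all genes. The most abundant were BCL2L2, which encodes the pro-survival protein BCL-W (1560.3 ± 62.8 and 1542 ± 22.8), and the mitophagy receptor BNIP3 (1568 ± 241 and 1293 ± 190.2). The 2 genes with an unadjusted p under 0.05, named after their values were seen, were BCL2L14 and BMF. BCL2L14, a BCL2-like gene at the low end of the table, had 8.06, 8.76 and 13.5 normalized counts in siNT and 24.4, 29.4 and 26.0 in siMNX1. Values of BCL2L14 did not overlap between groups. The difference, 1.34 on the log2 scale (SE 0.314, 95% interval 0.64 to 2.05), missed the threshold (limma, adjusted p = 0.0525) but passed with a pseudocount of 5 (limma, adjusted p = 0.0437) and with a robust variance model (limma, adjusted p = 0.0453). Its adjusted p over all alternatives ran from 0.0437 to 0.143. BMF, a BH3-only gene, had 275, 231 and 261 in siNT and 325, 373 and 309.6 in siMNX1, a log2 fold change of 0.39 (limma, adjusted p = 0.0914). BMF too was higher in every siMNX1 library than in any siNT library.

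Downstream and upstream genes of the pathway were taken from 7 further lists. Together with the other family genes they held 84 measured genes, of which 2 were higher and 0 lower by limma, or 2.38% beside 3.32% of all genes. An unadjusted p under 0.05 was found for 19 of the 84, beside 18.4% of all genes (9.81% higher and 8.56% lower). Groups did not overlap for 30 of the 84 (35.7%), beside 24.0% of all genes. Downstream of the family, 0 of 11 genes of mitochondrial release and the apoptosome, 0 of 7 caspases and nucleases and 0 of 6 inhibitors of apoptosis were called. At an unadjusted p under 0.05 by limma these lists had 1 lower, 2 lower and 1 higher gene. VDAC1, a channel of the outer mitochondrial membrane, had a log2 fold change of -0.21 (limma, adjusted p = 0.0674), and MTCH2, a receptor for BID on mitochondria, -0.11 (-0.19 without siMNX1 replicate 1, -0.069 without siNT replicate 3 and -0.053 without siMNX1 replicate 2). CASP2 and ACIN1, the most abundant of their list, had -0.12 and 0.0076. XIAP, the direct inhibitor of caspases, and BIRC6 had 0.25 and 0.21. The BIRC6 value was 0.075 without siNT replicate 3 and 0.32 without siNT replicate 1. XIAP did not pass with all libraries (limma, adjusted p = 0.200), and its groups overlapped. It passed without siMNX1 replicate 1 (limma, adjusted p = 0.0459), while its highest value over left-out libraries was 0.433 (limma, adjusted p).

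Upstream of the family, 0 of 7 death receptor genes were called and 0 had an unadjusted p under 0.05. Beside this and the lists below, limma called 3.32% of all genes (1.99% higher and 1.33% lower). An unadjusted p under 0.05 was found for 18.4% of all genes (9.81% higher and 8.56% lower). CFLAR, which blocks caspase-8, and RIPK1 had log2 fold changes of 0.11 and -0.11. The CFLAR value was 0.027 without siMNX1 replicate 2, and 0.17 without siNT replicate 3 or siMNX1 replicate 3. Of 16 genes of a DNA damage response list, 1 was higher and 0 lower by limma (5 and 1 unadjusted). TP53INP1, a stress protein gene, had 325, 289.7 and 348 in siNT and 449.7, 499.5 and 428.5 in siMNX1, and rose in the siMNX1 group (log2 fold change 0.52, limma, adjusted p = 0.0252). SESN1, which restrains growth signalling under stress, and CDKN1A, an inhibitor of the cell cycle, named after their values were seen, had 0.36 (limma, adjusted p = 0.0807) and 0.35 (limma, adjusted p = 0.103). Of 12 stress transcription factors, 1 was higher and 0 lower by limma (2 and 2 unadjusted). FOXO1 can activate BCL2L11 and belongs to the family whose core GTAAACA is printed for that gene. It had 839.9, 767 and 827 in siNT and 1059, 1167 and 943 in siMNX1, and rose as well (log2 fold change 0.38, limma, adjusted p = 0.0451). BCL2L11 had -0.22 and was not called (limma, adjusted p = 0.263). A link between FOXO1 and BCL2L11 was not tested. FOXO4, named after its values were seen, had 0.49 (limma, adjusted p = 0.0616). The TP53INP1 and FOXO1 calls each ended in 5 of 6 cases of a left-out library, all but siMNX1 replicate 3 (limma, adjusted p from 0.0432 to 0.0944 and from 0.0281 to 0.149). Of 16 kinases, phosphatases and ligases that act on BCL2 proteins, 0 were called (2 higher and 1 lower unadjusted by limma). Of these YWHAQ, a 14-3-3 protein gene of the group that holds BAD, and AKT1, a kinase of BAD, had -0.042 and -0.074, the latter -0.044 without siNT replicate 3. GSK3B, a kinase of MCL1 named after its values were seen, had 0.29 (limma, adjusted p = 0.0617) and passed without siMNX1 replicate 3 (limma, adjusted p = 0.0281).

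**Figure D4:**
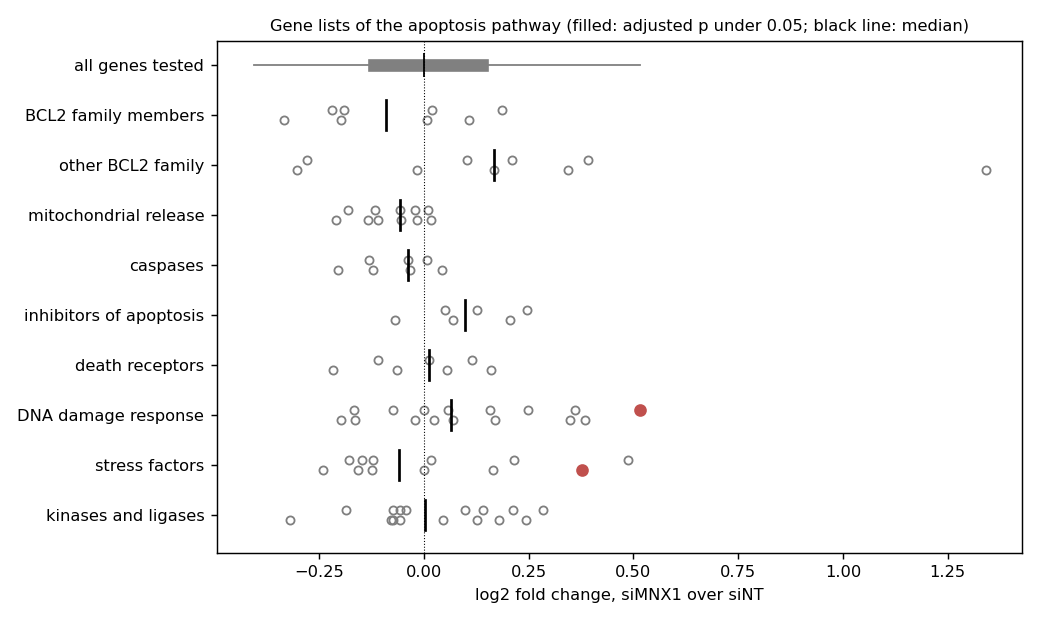
Log2 fold change of siMNX1 over siNT (horizontal axis) for each measured gene of 9 lists, with the list's median as a black line and genes past the threshold filled. The top row shows all genes tested by their median, 25th to 75th percentile (thick) and 5th to 95th percentile (thin). TP53INP1 at 0.52 and FOXO1 at 0.38 are the 2 filled points.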

How the data were processed

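The data are 6 RNA-seq libraries, 3 siNT and 3 siMNX1, grouped and numbered by their titles. Per the labels' protocols, the Ovation Solo kit was used on 5 ng of total RNA, and ribosomal sequences were depleted. The values the authors deposited are normalized counts, a signal that is 0 or above and not per length. The submitters' processing notes name DESeq, DESeq2 1.26.0, RSEM 1.3.1, STAR 2.7.6a, R 3.6.3 and the build GRCh38, without saying what each did, and no annotation, gene filter or strand setting. Of values under 30, at most 42.1% in any library were whole multiples of 1 step (tolerance 0.02 steps), so values could not be turned back into reads and count models were not used.

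Values were analysed as log2(value + 1), which understates changes of low genes, with limma 3.58.1 (R 4.3.3), a variance trend, Benjamini-Hochberg adjustment over all 16792 genes and a threshold of 0.05. Percent differences are between group means. The lowest mean, 6.57, was above the minimum of 5, so 0 genes were filtered out. The procedure was also run on simulated data, and the outcome, including how often small changes were found, is not reported here. Members and lists were chosen with earlier results of these data known. Named by rule were all members, MNX1, PERCC1 and SST, in each further list up to 4 called genes or otherwise the 2 most abundant, and the 3 profiles nearest to that of the member of smallest adjusted p. Positions and lengths came from GENCODE 29, promoters from RefSeq (GRCh38.p14). Alternatives were pseudocounts of 0.5 and 5, a minimum mean of 50, TMM scaling, equal totals, a robust variance model, a replicate block and each library left out in turn (for ratios, added after seeing the data). Some genes and a motif that were examined are not reported here.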

Additional observations from a re-analysis of the deposited data

How the results depend on the processing

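Of the 8 members, 0 were called by limma in the main analysis and in each of 13 alternatives, and the lowest adjusted p of a member was 0.0731. Log2 fold changes of BCL2L1, BAK1, BID, BCL2L11, BAD and PMAIP1 kept their sign throughout. That of MCL1 ran from -0.021 to 0.031 and that of BAX from -0.012 to 0.045 over left-out libraries, so neither kept its sign. The same held for BCL2L2 (-0.039 to 0.016) and ACIN1 (-0.041 to 0.061). Over left-out libraries the genes called numbered 198 to 436, beside 558 with all 6, and those called in the 8 pathway lists 0 to 3, beside 2. These fits have fewer samples. Over all genes, same-numbered libraries did not deviate together (correlations -0.038 to -0.0085, and 0 of 6 libraries correlated best with their own number). This does not settle whether equal numbers share a culture or day, which no label states. With a replicate block, 237 genes were called in all and 0 in the pathway lists. The block lowered the SE of BID from 0.109 to 0.0813 and that of BCL2L11 from 0.0965 to 0.0826. It raised the SE of the other measured members. The unknown depth limits what can be said of low genes such as BCL2L14. With a minimum mean of 50 BCL2L14 was not tested.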
